A study of Mus musculus with 24 samples.

Results

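The cytosolic ribosomal protein genes of the mouse eye were examined in a series of whole-eye RNA-seq libraries from mice kept under summer-like or winter-like conditions. Members were taken by name, as every gene whose symbol begins with Rpl, Rps or Rplp and a number (with Rpsa), leaving out the mitochondrial set and kinases, and whose mean level was at least 1 CPM (counts per 1000000 counts of the library) over all libraries. Of 19018 genes in the table, 88 fitted the name and 83 passed the minimum. By lists of ribosomal components, 31 of the 83 encode proteins of the small (40S) subunit, 43 proteins of the large (60S) subunit and 3 the P stalk of the large subunit. Another 5 (Rpl3l, Rpl7l1, Rpl22l1, Rpl36al and Rps27l) are paralogs of such proteins, and Rps19bp1 encodes a protein that binds Rps19 and is not itself a subunit. The remaining 5 names (Rpl32l, Rpl34-ps1, Rpl31-ps12, Rpl39l and Rpl37rt) lay below the minimum and are not described further.

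LW mice were kept under long days and warmth (16 h light and 8 h dark, 27 °C), and SC mice under short days and cool (8 h light and 16 h dark, 10 °C). All were male CBA/N mice, 10 weeks of age when transferred, and both conditions lasted 4 weeks. Eyes were collected at 6 evenly spaced times between 2 h and 22 h, with 2 libraries per condition and time, giving 12 LW and 12 SC libraries. By the light bars drawn for the sampling, lights were on at 4 h to 20 h under LW and at 8 h to 16 h under SC, so the eyes of 6 h and 18 h came from light under LW and from darkness under SC. Day length and temperature changed together and cannot be told apart here. Nothing in the labels tells whether both libraries of a group came from separate animals, so p-values measure only the spread between these libraries, which may be technical. Here a library is called an eye for short, which makes no claim that the 2 of a group are separate samples.

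The cytosolic ribosome reads messenger RNA (mRNA) into protein, and each subunit contains a single copy of most of its proteins together with ribosomal RNA. The mRNAs of these proteins belong to the 5′ terminal oligopyrimidine (TOP) class, named for an uninterrupted stretch of C and T (U in the RNA) at the first bases, through which their translation answers to TOR kinase signalling. Cells usually make the proteins in matched amounts, and the mRNAs are short and abundant in nearly every tissue, so several of the genes are used as reference genes in quantitative PCR.

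Each library held 19543401 to 28859071 expected counts under LW and 20164885 to 28447184 under SC, an expected count being the number of reads that the authors' software assigned to a gene. The tissue label was checked by a lens marker: the crystallin gene Cryaa was at 12590 to 17005 CPM over the 24 libraries. The albumin gene Alb, a liver marker, was at 0 in 9 libraries and reached 76.3 CPM in the replicate 2 library of SC 6 h, and that library and the replicate 2 library of SC 10 h, which hold liver transcripts, were left out in an alternative. The members took 2.29% to 2.66% of all counts under LW and 2.42% to 2.79% under SC, ranges that overlap over most of their length.

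The start of the gene is where the TOP stretch lies, so the bases around the annotated start are shown for members that departed most from the others and for the most abundant. RefSeq gives a position for all 83 members. Sequence around a start on GRCm38.p6, the build of the files, was at hand for 63 of them. No such sequence was at hand for Rps14 and Rpl36, which also departed among the most, so their windows are not shown. Each window runs from 10 bases before the start to 20 after it, on the gene's own strand, and capitals mark its longest run of C or T.

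Rpl12: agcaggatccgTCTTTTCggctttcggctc

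Rps18: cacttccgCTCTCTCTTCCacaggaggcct

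Rpl13a: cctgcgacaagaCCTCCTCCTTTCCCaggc

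Rpl22l1: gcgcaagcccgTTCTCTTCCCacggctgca

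Rps6: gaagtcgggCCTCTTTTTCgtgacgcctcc

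Rps24: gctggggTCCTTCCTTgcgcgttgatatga

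Rps15a: tttctgccaTCTTCCCTCgccggtgagtga

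Rpl15: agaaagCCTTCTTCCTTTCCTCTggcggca

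Rpl4: TTTCCTgtgggagcagccgggtagagagga

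Rplp0: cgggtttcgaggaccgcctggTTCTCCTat

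Rpsa: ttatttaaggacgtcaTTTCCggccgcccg

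Among these, the window of Rpl12 lies at chr2:32961702-32961731 on the plus strand, that of Rps18 at chr17:33955646-33955675 on the minus strand, that of Rpl22l1 at chr3:28805498-28805527 on the plus strand and that of Rps6 at chr4:86857348-86857377 on the minus strand. Each spans the border between the promoter and the first exon (5′ untranslated region). A run of at least 7 bases that are all C or T was found in 28 of the 63 member windows (44.4%), against 2497 of 14192 windows of the other genes tested (17.6%). The share was 43.5% in 40S genes and 43.8% in 60S genes. The run of Rpl22l1, which was higher under LW, and that of Rpl12, which was lower, both began at the second base of the annotated transcript. The longest run in the window of Rpl4, one of the most abundant members, was 6 bases long and lay wholly before the listed start. The windows depend on where the annotation places the start, and a run is a description of letters only.

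Levels can be set beside each other between genes only per length of transcript. On that scale the highest members were Rpl41, a very small 60S protein, at 844 CPM per kilobase of transcript, Rps24 of the 40S subunit at 801, and Rplp1 of the P stalk at 775. The lowest were Rpl3l, known as the form of Rpl3 in heart and skeletal muscle, at 12.9 CPM per kilobase and Rps19bp1 at 14.2. Rps6, the 40S protein that S6 kinase phosphorylates, was listed at 21.7 CPM per kilobase, the lowest of the subunit genes. The next were Rps15a at 43.8 and Rps20 at 74.6 CPM per kilobase, both of the 40S subunit. Their low places rest on the transcript lengths used, 5179 bases for Rps15a and 3706 for Rps20, where the member median was 799. Before division by length they were at 227 and 277 CPM. Ribosomal protein genes have many near-identical processed copies in the genome, among which reads can be split, so the levels of Rps6 and the others depend on how the reads were assigned.

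Comparing LW with SC over all times asks whether the season changed the expression of the ribosomal proteins. In these libraries the median difference of the members was slightly below 0, and few members differed beyond the spread between replicate eyes. The log2 difference (LW minus SC) was negative for 81 of 83 members, with a median of -0.05, whereas the median over all 18233 genes tested was 0.00 and 50.1% of them were negative. By limma with Benjamini-Hochberg adjustment over all genes tested, 7 of 83 members passed an adjusted p of 0.05 (8.43%), against 9.49% of all genes. Of the members 6 were lower under LW (7.23%, against 4.65% of all genes) and 1 was higher (1.20%, against 4.84%). With all 24 libraries the called share was near the background, and the differences were small and nearly all of one sign. The called share moved with single libraries, as given below. Genes that move together from library to library do not give independent signs. Taken per library, the member median differed by -0.05 with an SE of 0.03, and the LW and SC libraries overlapped. That difference was not tested.

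**Figure D1:**
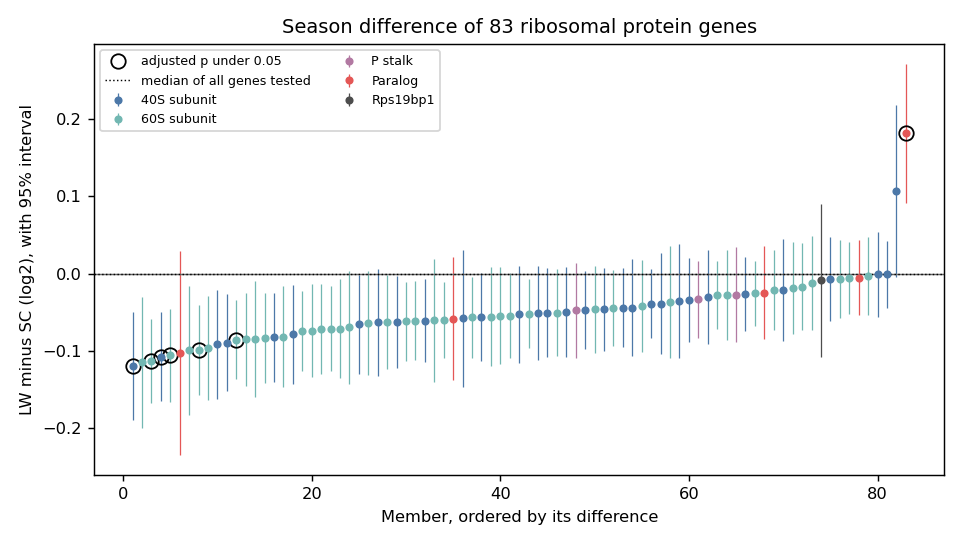
Log2 difference (LW minus SC, averaged over 6 times, vertical axis) of the 83 members in order of size (horizontal axis), with 95% intervals from the limma fit, coloured by class, and circled where the adjusted p was under 0.05. The points run from -0.12 for Rps18 to 0.18 for Rpl22l1, and 81 lie below 0.

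The 6 members that fell are components of both subunits. Rpl12, a 60S protein at the base of the P stalk, had 7311 to 8684 scaled expected counts under LW with a median of 7947, against 7960.2 to 9492 under SC with a median of 8534. Scaled counts are expected counts brought to a common library size. Of the 12 LW libraries 6 lay below every SC library, and the highest SC value was that of the SC 14 h replicate 1 eye. The difference was -0.11 (SE 0.03, adjusted p = 0.00824), by which expression under LW fell by 7.57%, and it was negative at all 6 times.

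Rps14, which lies at the platform of the 40S subunit, averaged 7484 ± 440.3 scaled counts under LW and 8069 ± 565 under SC (SD, n = 12 each), a difference of -0.11 (adjusted p = 0.0164). Its 12 LW libraries ran from 6875 to 8073 with a median of 7529, and the SC libraries from 7133 to 9270.3 with a median of 8011. The ranges overlapped, with 4 LW libraries below all of SC and 5 SC libraries above all of LW.

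Rpl13a and Rps18 are used as reference genes for quantitative PCR. Rpl13a of the 60S subunit had a lowest, median and highest of 9322, 10152 and 11141 scaled counts under LW, against 9649, 10877 and 11868 under SC, and differed by -0.11 (SE 0.03, adjusted p = 0.0240). Rps18 of the 40S subunit had 6230.4, 6938 and 7708 under LW, against 6601, 7546 and 8550.1 under SC, and differed by -0.12 (SE 0.03, adjusted p = 0.0282), the most negative value of any member. In both, 4 SC libraries lay above every LW library, and the other 8 fell inside the LW range.

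Rpl24, a 60S protein at the face between the subunits, averaged 4378 ± 231 scaled counts under LW and 4691 ± 293 under SC (SD, n = 12 each), a difference of -0.10 (adjusted p = 0.0284). Rpl3, a 60S protein near the peptidyl transferase centre, averaged 15128 ± 754 under LW and 16048 ± 679.8 under SC, a difference of -0.09 (adjusted p = 0.0323). Both ranges overlapped, with 4 LW libraries of each gene below all of SC. Of the 7 calls, those of Rpl12, Rps14 and Rpl22l1 held when any single library was left out, whereas Rpl3 lost its call in 13 of 24 such fits, Rpl24 and Rps18 in 9 each and Rpl13a in 5.

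The other members of the same complexes had differences of the same sign and smaller or less certain size. The 43 genes of 60S proteins had a median difference of -0.06, and all 43 were negative. The 31 genes of 40S proteins had a median of -0.05 with 30 negative, the exception being Rps6. Rplp0, Rplp1 and Rplp2 of the P stalk, which recruits elongation factors, had a median of -0.03 and none was called. Among the most abundant members, Rplp0 (difference -0.03, 95% interval -0.08 to 0.02), Rpl4 (-0.05, adjusted p = 0.130) and Rpsa (-0.01, adjusted p = 0.903) did not pass the test. Rpl36, a 60S protein, had a difference of -0.12 as large as that of Rps18, but its spread was wider and its adjusted p was 0.0804. Just past the threshold from Rpl3, Rpl27 had a difference of -0.07 with an adjusted p of 0.0604.

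Rpl22l1 was the only member called higher. It encodes a paralog of the 60S protein Rpl22, which can take the place of Rpl22 in the ribosome, and in mice Rpl22 is known to hold down Rpl22l1 expression. Under LW its eyes had 847 and 883 scaled counts (2 h), 1105 and 872 (6 h), 797 and 779.7 (10 h), 982 and 859 (14 h), 958 and 925 (18 h), and 819 and 944 (22 h). Under SC they had 852 and 819 (2 h), 806 and 943 (6 h), 727 and 798 (10 h), 806 and 695 (14 h), 768 and 698 (18 h), and 784 and 786 (22 h). The ranges overlapped, with 4 of 12 LW libraries above every SC library and 4 of 12 SC libraries below every LW library, and at 14, 18 and 22 h both LW eyes lay above both SC eyes.

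The difference of Rpl22l1 was 0.18 (SE 0.04, adjusted p = 0.0107), or 13.4% higher under LW, and it was positive at all 6 times, from 0.05 at 2 h to 0.36 at 18 h. Without the eyes of 18 h the adjusted p was 0.0720. Its parent gene Rpl22, named here after its values were seen, averaged 3787 ± 208 scaled counts under LW and 3799 ± 135 under SC (SD, n = 12 each), a difference of -0.01 with a 95% interval of -0.05 to 0.04. Rpl22l1 lacked a difference that varied between times beyond the spread (interaction adjusted p = 0.571).

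The other paralogs did not pass the season test. Rpl3l had a difference of -0.10 (SE 0.06, adjusted p = 0.333), with values that ranged at single times from -0.38 at 6 h to 0.14 at 2 h. Rps27l, a paralog of Rps27 known as a target of p53, differed by -0.06 (adjusted p = 0.371), Rpl36al by -0.02 (adjusted p = 0.647) and Rpl7l1 by -0.01 (adjusted p = 0.922). Rps19bp1 differed by -0.01 (adjusted p = 0.937). The muscle markers, which matter for Rpl3l because its known sites are muscles, were called lower under LW in 1 of 14 genes and summed to 2420 to 3902 CPM under LW and 2759 to 4321 CPM under SC; their part in the Rpl3l values was not tested.

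Rps6 had the other positive difference, 0.11 (SE 0.05, adjusted p = 0.222). Its LW eyes had 440.2 and 419 scaled counts (2 h), 521 and 466 (6 h), 514 and 475 (10 h), 509.9 and 535 (14 h), 478 and 500.1 (18 h), and 398 and 482 (22 h). The SC eyes had 451 and 338 (2 h), 503 and 416 (6 h), 425 and 515 (10 h), 399 and 436 (14 h), 398 and 460.3 (18 h), and 504 and 501 (22 h). The conditions overlapped almost fully, and the sign turned at 22 h, where the difference was -0.20.

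**Figure D2:**
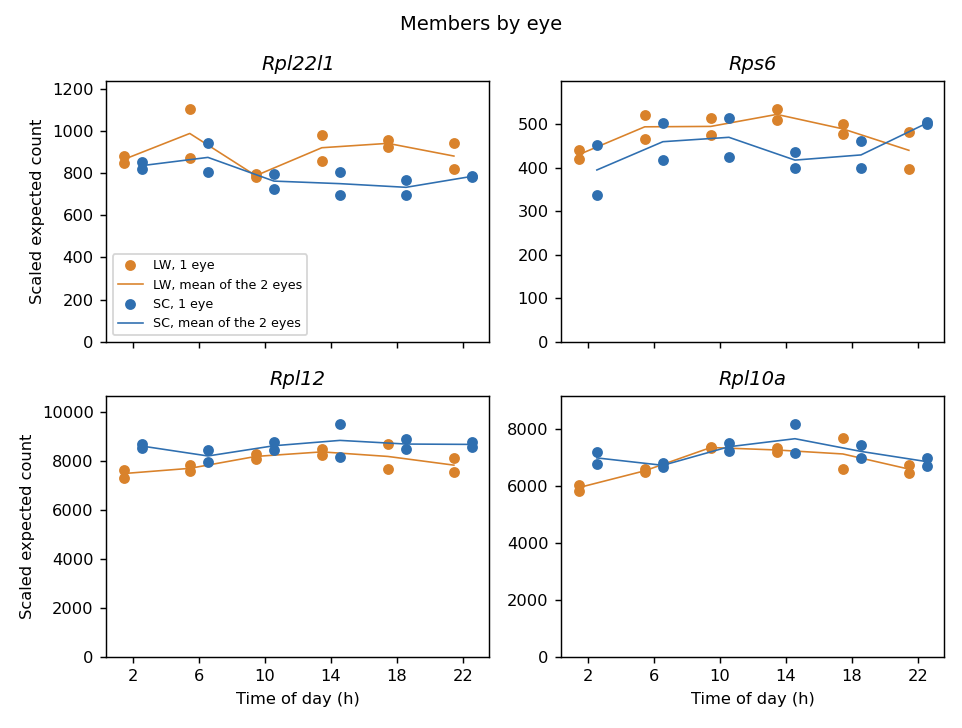
Scaled expected counts (vertical axes, from 0) of Rpl22l1, Rps6, Rpl12 and Rpl10a in each eye against time of day (horizontal axes), LW in orange left of SC in blue, with lines through the means of the 2 eyes. Rpl22l1 lay between 779.7 and 1105 under LW and between 695 and 943 under SC, and the LW eyes of Rpl12 lay between 7311 and 8684, against 7960.2 to 9492 under SC.

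Comparing the conditions at each time asks whether the shift belonged to part of the day. In the order of the times, the median difference of the members was -0.12 (2 h), 0.02 (6 h), -0.02 (10 h), -0.05 (14 h), -0.06 (18 h) and -0.08 (22 h). The difference was negative for 77 of 83 members (2 h), 29 (6 h), 54 (10 h), 72 (14 h), 69 (18 h) and 81 (22 h). The shift was widest at 2 h, when both conditions were dark, and at 6 h most members had the opposite sign.

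At 2 h, 2 of 83 members were called (2.41%, against 3.64% of all genes), both lower under LW (against 1.87% of all genes in that direction). Rpl10a, a 60S protein at the L1 stalk, had 6041 and 5824 scaled counts in the LW eyes, against 7189 and 6759 in the SC eyes, a difference of -0.23 (adjusted p = 0.0468). Rpl3 had 14398 and 14004 in the LW eyes, against 16569 and 16531 in the SC eyes, a difference of -0.22 (adjusted p = 0.0443). The 2 eyes of each condition stood apart from the other 2 in both genes. These calls lay close to the threshold: Rpl3 lost its call at 2 h in 12 of 24 fits without 1 library and Rpl10a in 15.

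By limma no member passed at any later time, where 2.80% (6 h), 0.510% (10 h), 0.176% (14 h), 1.56% (18 h) and 2.91% (22 h) of all genes did. At an unadjusted p under 0.05 the members numbered 29 (2 h), 1 (6 h), 1 (10 h), 4 (14 h), 5 (18 h) and 7 (22 h). At 2 h this was 34.9% of the members against 18.1% of all genes, and at the other times it was between 1.20% and 8.43% of the members, below the share of all genes at each time. The smallest adjusted p at 18 h was 0.0637 and at 22 h 0.0986.

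**Figure D3:**
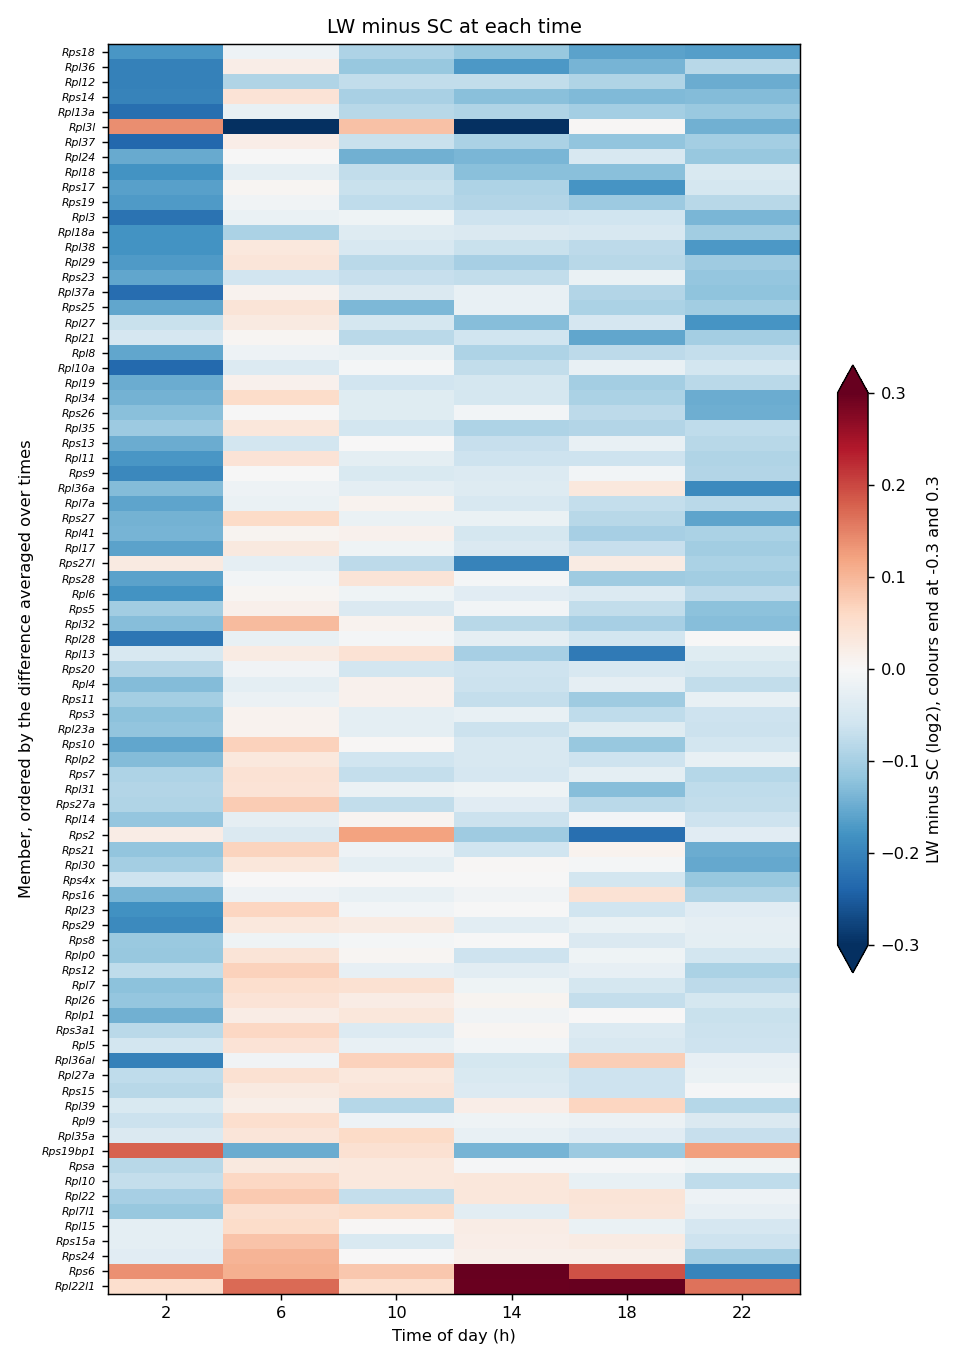
Log2 difference (LW minus SC, colour, ending at -0.3 and 0.3) of each of the 83 members (rows, ordered by the average over times) at the 6 times (columns). The column of 2 h is blue for 77 members, that of 6 h for 29, and the lowest row, Rpl22l1, is red at all times.

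Whether the difference between conditions varied over the day was tested by the season by time interaction. No member passed the limma F test (0 of 83, against 4.98% of all genes), and 1 member had an unadjusted p under 0.05 (1.20%, against 18.5% of all genes). That member was Rps2, a 40S protein near the mRNA entry, whose difference was 0.12 at 10 h and -0.23 at 18 h, with an adjusted p of 0.136. The unequal medians at the 6 times are thus given as values, with no call for any member.

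Few members varied over the day within a condition. Within LW, 3 of 83 members passed the F test over the 6 times (3.61%, against 19.0% of all genes), and within SC 1 did (1.20%, against 10.7%). The 3 under LW were Rpl10a (adjusted p = 0.00828), Rpl7l1 (adjusted p = 0.00832) and Rpl36al (adjusted p = 0.0132).

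Rpl10a under LW had 6041 and 5824 scaled counts (2 h), 6573 and 6472 (6 h), 7373 and 7305 (10 h), 7333 and 7171 (14 h), 7656 and 6569 (18 h), and 6730 and 6435 (22 h). It was lowest at 2 h and high from 10 h to 14 h, with the eyes of 18 h far apart. Rpl36al, a paralog of Rpl36a, had 1131 and 1152 scaled counts at 2 h under LW and 1523 and 1376 at 10 h. Rpl7l1, a paralog of Rpl7, had 1129 and 1078 at 2 h under LW and 1379 and 1348 at 10 h. In both, the 2 h eyes lay below all other LW eyes. Without the eyes of 2 h none of the 3 passed.

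Under SC the single call was Rps19bp1 (adjusted p = 0.0429), with 234 and 250.2 scaled counts (2 h), 299 and 304 (6 h), 323 and 310.1 (10 h), 329 and 313 (14 h), 318 and 304 (18 h), and 248 and 252 (22 h). It was low at 22 h and 2 h and higher at the 4 times between, with close agreement of the 2 eyes. The call lay near the threshold and was lost in 14 of 24 fits without 1 library.

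The members moved together from library to library. The median deviation of the members from their own means over the 24 libraries was computed for each library, as a description without a test. Under LW it was -0.09 and -0.12 (2 h), -0.03 and -0.04 (6 h), 0.02 and 0.01 (10 h), 0.06 and 0.01 (14 h), 0.09 and -0.12 (18 h), and 0.01 and -0.11 (22 h). Under SC it was 0.02 and 0.00 (2 h), -0.02 and -0.09 (6 h), 0.06 and 0.02 (10 h), 0.17 and -0.02 (14 h), 0.01 and 0.08 (18 h), and 0.01 and 0.06 (22 h). The 2 eyes of LW 18 h differed by 0.21 and those of SC 14 h by 0.19, more than any difference between conditions at a time.

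The mean over the 12 libraries was -0.03 ± 0.07 under LW and 0.03 ± 0.06 under SC (SD). The difference of -0.05 had an SE of 0.03, from an SD of 0.07 between eyes of the same group, and is given without a test. In the LW 2 h eyes 2 of 83 members each lay above their own mean, in the LW 18 h replicate 1 eye 80, and in the SC 14 h replicate 1 eye 81. The SD of a member over the 24 libraries had a median of 0.08 on the log2 scale, and 0.05 once the library's member median was taken off. It shrank for 77 of the 83 members. For the abundant ones among the other genes the median SD was 0.09 before and 0.12 after. Other genes at lower mean levels were left out of these medians.

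**Figure D4:**
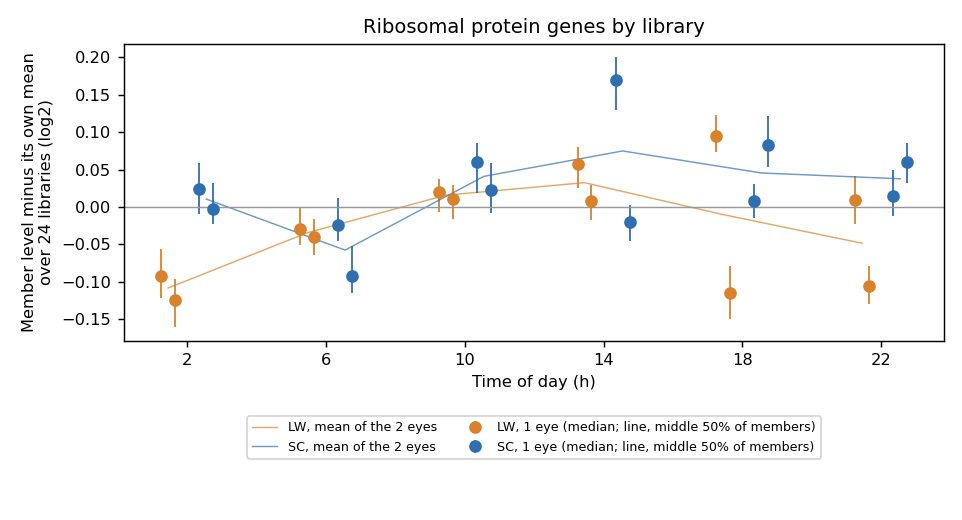
Median over the 83 members of each gene's log2 level minus its own mean over 24 libraries (points, 1 per eye; vertical lines, the middle 50% of members) against time of day, LW in orange left of SC in blue, with lines through the means of the 2 eyes. The LW eyes lie between -0.12 and 0.09 and the SC eyes between -0.09 and 0.17, and the 2 eyes of LW 18 h and of SC 14 h lie far apart.

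Single libraries moved the number of members called, while 3.29% to 5.49% of all genes were called lower over all fits without 1 library. Without the LW 18 h replicate 1 library, 31 members were called lower under LW in place of 6, and without the other eye of that group 3 were. Without the SC 14 h replicate 2 library 21 were called lower, and without the other eye of that group 2 were. Without the LW 22 h replicate 1 library 15 were called lower, and without its partner 2 were. No member was called lower without the eyes of 2 h, against 2.82% of all genes. The count of 6 thus rests on this set of libraries, while the median difference stayed between -0.07 and -0.03 when any single library was left out.

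Members that departed from the shared movement were sought by the same limma fit on each gene's log2 level minus the member median of its library. Rpl22l1 alone was called (1 of 83 higher, 1.20%, against 8.37% of all genes on this scale; 0 lower, against 1.39%), with a departure of 0.24 (adjusted p = 0.00735), and it kept the call in every fit without 1 library. The next largest departures were those of Rps6 at 0.16 (adjusted p = 0.0864), Rps24 at 0.05 (adjusted p = 0.126), Rps15a at 0.05 (adjusted p = 0.218) and Rpl15 at 0.05 (adjusted p = 0.140). On the other side stood Rps18 at -0.06 (adjusted p = 0.0854), Rpl36 at -0.06 (adjusted p = 0.198), Rpl12 at -0.06 (adjusted p = 0.0739), Rps14 at -0.05 (adjusted p = 0.134) and Rpl13a at -0.05 (adjusted p = 0.142). None of these 9 passed the test.

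Other genes of the translation machinery were compared by lists of known function, beside 4.84% of all genes called higher and 4.65% called lower. A list of 3 partners of the members outside the name rule had a median difference of -0.07, and of -0.20 at 2 h. All 3 were negative over the times, and 1 was called lower. Of 18 translation factors and related genes whose mRNAs are of the TOP class, the median difference was 0.01, with 2 called higher and 1 lower. Those higher were Hnrnpa1, an RNA-binding protein (0.14, adjusted p = 7.47e-05), and Nap1l1, a histone chaperone (0.13, adjusted p = 0.00259). Eef2, the elongation factor that moves the ribosome along the mRNA, was lower (-0.08, adjusted p = 0.0163). Eef1a1, the abundant factor that brings transfer RNA to the ribosome, had a difference of 0.04 (adjusted p = 0.255). In this list 7 of 18 differences were negative, against 81 of 83 for the ribosomal proteins.

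Of 24 other translation factors 6 were called higher under LW (against 4.84% of all genes) and none lower (against 4.65%), with a median of -0.01. They included Eif4a2, an RNA helicase of initiation, with 8765 ± 405 scaled counts under LW and 7727 ± 251 under SC (SD, n = 12 each; difference 0.18, adjusted p = 5.85e-05), Eif5b, which joins the subunits (0.13, adjusted p = 0.00144), and Eif5 (0.14, adjusted p = 0.0298). Of 37 genes of ribosome assembly and 16 of TOR signalling none passed the season test, with medians of -0.01 and -0.02.

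Groups of other short or abundant transcripts, chosen after the data were seen, were set beside the members. The median transcript length of the members was 799 nt. Other genes with a transcript of at most 1000 nt and a mean of at least 10 CPM, 515 in number, had a median season difference of -0.03 and of -0.09 at 2 h, against 0.00 and 0.01 for 10626 genes with longer transcripts. The 77 nuclear genes of oxidative phosphorylation had medians of -0.04 and, at 2 h, -0.09. The 78 mitochondrial ribosomal protein genes had -0.01 and, at 2 h, -0.04.

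The same libraries stood out in these groups. In the SC 14 h replicate 1 eye the median deviation of the short transcripts was 0.12 and that of the oxidative phosphorylation genes 0.13, beside 0.17 for the members, and in the LW 18 h replicate 2 eye they were -0.07 and -0.08, beside -0.12. Values were also taken relative to the median of the short transcripts in the same library, an alternative chosen after the data were seen. The median difference of the members was then -0.03, and 65 of 83 were negative. Of the 83, 4 were called lower (Rpl12, Rpl13a, Rps14 and Rps18), where 1.87% of all genes were. Rpl22l1 was called higher, where 3.92% of all genes were. The part of transcript length or RNA quality in the members' values was otherwise not tested.

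**Figure D5:**
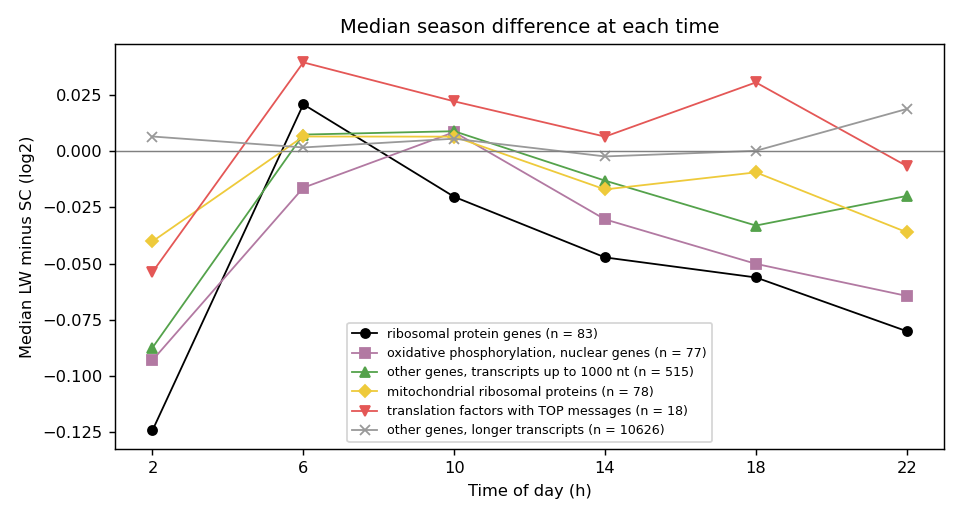
Median log2 difference (LW minus SC, vertical axis) at each time (horizontal axis) of the 83 members and of 5 other groups of genes, whose sizes stand in the legend. The members reach -0.12 at 2 h, beside -0.09 for the other short transcripts and the oxidative phosphorylation genes and 0.01 for the longer transcripts.

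Markers of cell types in the eye also moved with the condition. Beside their counts stand the 4.84% of all genes called higher and the 4.65% called lower. Of 20 genes of corneal and conjunctival epithelium 10 were called lower under LW and none higher, and their summed level was 11905 to 17172 CPM under LW and 15972 to 18676 CPM under SC, with none of them at 0 in any library. The LW 2 h eyes, in which the members were low, had 14017 and 11905 CPM of these genes. The LW 6 h eyes had 14010.4 and 15353 CPM. The median difference of the epithelial genes was -0.37 at 2 h and -0.32 at 6 h, with 8 called at each of these times, whereas that of the members was -0.12 at 2 h and 0.02 at 6 h. Of 16 lens crystallin genes 10 were called higher under LW and none lower, with sums of 45535 to 52955 CPM under LW and 40456 to 50225 CPM under SC. Of 10 genes of retinal pigment epithelium 4 were called lower and none higher, with sums of 1623 to 1859 CPM under LW and 1749 to 1952 CPM under SC. Of 11 genes of macrophages and microglia 3 were called lower and none higher, with sums of 183 to 236 CPM under LW and 185 to 278 CPM under SC. Of 12 liver genes 1 was called lower and none higher. Their sums did not overlap, at 470.3 to 528 CPM under LW and 543 to 683 CPM under SC. The liver markers Alb, Apoa1, Fga and Ahsg made up little of these sums in most libraries, with medians of 0.0407, 0.151, 0 and 0 CPM. Ttr, listed with the pigment epithelium, was at 469 to 623 CPM over the libraries. Which gene carried the liver sums was not tested, so their gap is not read as one in liver tissue. Of 13 rod genes 3 were called higher and 1 lower, and of 5 red blood cell genes tested none was called. In whole-eye RNA, fewer cells of a type and less RNA per cell cannot be told apart, and the part of the mixture of cells in the members' values was not tested.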

How the data were processed

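Whole-eye RNA was sequenced by the authors, aligned to the mouse genome (GRCm38.p6) with HISAT2 version 2.0.4 and quantified per gene with RSEM, per the labels and the submitters' processing notes. The deposited values are expected counts, on another scale than whole reads since RSEM shares ambiguous reads among genes: 89.6% were whole to within 1e-06. Of the table's cells 43565 held no number and were read as 0.

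Counts were scaled by the trimmed mean of M-values (TMM; factors 0.982 to 1.02) and analysed as log2(scaled count + 1) with limma 3.58.1 in R 4.3.3, keeping the 18233 genes whose scaled count reached 1 in 2 or more libraries. A separate mean was fitted for each of the 12 groups, with a trended, robust variance and 12 residual degrees of freedom, and p-values were adjusted by Benjamini-Hochberg over all genes tested. Fold changes are on the log2(value + 1) scale. The procedure was tested on simulated data. Figures were drawn with matplotlib.

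The members, gene lists and tests were chosen with earlier results of these data known. Members were named by fixed ranks of season difference, departure, p-value and level, with all paralogs and 4 set genes (Rps6, Rplp0, Rpl13a, Rps18). Alternatives changed the scaling, pseudocount, filter, test, block and libraries. Library totals were 19543401 to 28859071 expected counts, and no interval is given for counting error alone.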

Additional observations from a re-analysis of the deposited data

How the results depend on the processing

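The median difference of the members kept its sign in all 42 alternatives, between -0.06 and -0.03 over scalings, filters, tests, block and omitted times. The number of members called lower under LW was 6 in the report, where 4.65% of all genes were. It was 12 with scaling by library total (5.35% of all genes), 12 with scaling by the library median (5.9%) and 12 without the eyes of 18 h (3.63%). It was 2 with the replicate block (2.65%) and 0 without the eyes of 2 h (2.82%). The 1 called higher, Rpl22l1, became 0 without the eyes of 18 h (3.65% of all genes, against 4.84% in the report). For the tests that follow, the share of all genes was not worked out in each fit. Their counts are therefore not read as particular to the members. For 2 h, the 2 calls became 4 with library totals, 4 without the eyes of 18 h, 1 without the 2 SC libraries that hold liver transcripts, 1 without the eyes of 22 h, and 0 with median scaling, a pseudocount of 10, no filter, the replicate block, without the eyes of 10 h and relative to short transcripts. For 18 h, 0 calls became 1 with median scaling, without the eyes of 6 h and without the eyes of 14 h. For time within LW, 3 calls became 6 with library totals, 6 without the eyes of 18 h, and 0 with the replicate block, without the eyes of 2 h and relative to short transcripts. For time within SC, 1 call became 2 without the eyes of 18 h and 0 with limma voom, the replicate block, relative to short transcripts, without the liver-bearing libraries and without the eyes of 2, 10 or 22 h. The cause of these moves was not tested, except that omitting eyes or adding block terms leaves fewer degrees of freedom.

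When single libraries were left out, the counts ranged from 2 to 31 (lower under LW), 1 to 1 (higher), 0 to 5 (2 h), 0 to 2 (18 h), 0 to 0 (6, 10, 14 and 22 h), 0 to 1 (interaction), 0 to 11 (time within LW), 0 to 4 (time within SC) and 1 to 4 (departures). Besides the libraries named in the report, the count called lower was 2 without SC 6 h replicate 1 (3.93% of all genes). It was 3 without LW 2 h replicate 2 (3.46%), SC 2 h replicate 1 (3.67%) or SC 22 h replicate 2 (3.54%). Over all fits without 1 library, 3.29% to 5.49% of all genes were called lower. The medians ranged from -0.07 to -0.03 over all times, -0.14 to -0.11 (2 h), -0.02 to 0.06 (6 h), -0.05 to -0.01 (10 h), -0.138 to 0.0520 (14 h), -0.151 to 0.0581 (18 h) and -0.14 to -0.02 (22 h). At 14 h and 18 h the sign thus turned with 1 library: without SC 14 h replicate 1 and without LW 18 h replicate 2. The sign at 6 h turned as well, to -0.0152 at the lowest without 1 library and to -0.0104 at the lowest over the other alternatives.

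Members with a difference near 0 changed sign, none of them called. Without the eyes of 2 h the differences became 0.00129 (Rpl15), 0.0104 (Rpl36al), 0.0158 (Rpl7l1), 0.00378 (Rps15a), 0.00529 (Rps24) and 0.00773 (Rpsa). Without those of 6 h Rps19bp1 had 0.0195, without 10 h Rps15a had 0.00922 and Rps24 3.01e-05, without 14 h Rpl7l1 had 0.00215 and Rps19bp1 0.0194, without 18 h Rpl15 had 0.00167 and Rps19bp1 0.0129, and without 22 h Rpl15 had 0.00628, Rps15a 0.0111 and Rps24 0.0195. Without the liver-bearing libraries Rps15a had 0.0113. Relative to short transcripts the values were 0.0237 (Rpl15), 0.00232 (Rpl36al), 0.0218 (Rpl7l1), 0.0259 (Rps15a), 0.0183 (Rps19bp1), 0.0261 (Rps24) and 0.0199 (Rpsa). With single libraries left out they ran from -0.0210 to 0.0152 (Rpl15), -0.0134 to 0.00468 (Rpl7l1), -0.0172 to 0.0170 (Rps15a), -0.0300 to 0.0166 (Rps19bp1), -0.0141 to 0.0131 (Rps24) and -0.0257 to 0.0124 (Rpsa).

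The replicate numbers of the labels were checked for pairing: the correlation across genes of replicate 2 minus replicate 1 between LW and SC ran from -0.19 to -0.04 at the 6 times, none over 0.1, so the numbers were not taken to pair eyes. The count models planned as alternatives were not run. Groups of 2 eyes limit what single times can show.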

Other observations

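The mitochondrial counterparts of these genes were few among the calls. Of 78 mitochondrial ribosomal protein genes 2 were called higher under LW and none lower, with differences from -0.16 to 0.16 and 45 of them negative. Of 77 nuclear genes of oxidative phosphorylation 1 was called higher and 9 lower, with 63 negative. Of all genes 4.84% were called higher and 4.65% lower. Both lists were drawn up after the data were seen, and the difference between them and the cytosolic members was not tested. Genes of ribosome assembly, none of which passed the season test, varied over the day more widely: 18 of 37 passed the test over time within LW and 17 within SC, where 19.0% and 10.7% of all genes did.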
